A study of Danio rerio with 2 samples.

Results

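Clusterin, the apolipoproteins E and A1, and the lipoprotein receptors of the LRP1 and LRP2 kinds were described in the adult zebrafish forebrain choroid plexus, the secretory tissue at the roof of the forebrain ventricle. The list holds 10 genes, chosen by name, among 25432 genes quantified, and 9 of them are described. Of these 9, 8 were found by their symbol in the authors' table of gene names, and lrp2b was found in the files of both libraries through a reference table of gene symbols. RNA came from whole tissue of untreated AB and nacre (mitfa-/-) fish aged 6 to 8 months, longer than 3 cm, after the pineal gland was taken off. It was purified with glycogen or on spin columns. There were 2 libraries, called batch 1 and batch 2 in the titles and replicates 1 and 2 here, each from a pool of 12 to 19 tissues. The labels do not tie strain or purification to a pool, and any difference between the replicates is also one between batches. There is 1 group, so no test between conditions exists, and levels, their spread over the replicates and ratios within a library are given as descriptions.

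Lipoproteins are particles of lipid held together by apolipoproteins, and cells take them up through receptors of the lipoprotein receptor family, which bring their cargo into the cell by endocytosis. In the mammalian brain, apolipoprotein E and clusterin (also called apolipoprotein J) are secreted locally and carry lipid between cells, and apolipoprotein A1 comes mostly from plasma. In mammals, the large receptor LRP2 (megalin) sits on the apical face of absorptive and ependymal epithelia, the choroid plexus included, and LRP1 takes up many ligands, among them apolipoprotein E. Zebrafish carry duplicates of many of these genes, so 8 of the 9 genes form 4 pairs of copies.

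The expected counts, the read counts that RSEM assigns to each gene, summed to 11712489 in replicate 1 and 13446356 in replicate 2. All 9 genes had whole expected counts in both replicates. Of 13 genes listed as markers of choroid plexus epithelium, 13 were detected in both libraries, beside 54.6% of all genes. They were led by rbp4, igfbp2a and clic6. That list was chosen with earlier results of these data known, so its count is no test of what the tissue is. The gene ttr, a defining marker in mammals, was at 0.20 and 0.51 TPM from counts of 1 and 3. It was chosen after its values were seen. The libraries differed in markers of other tissues. The pineal and photoreceptor list (21 genes) summed to 3493 TPM in replicate 1 and 120.4 TPM in replicate 2, the neuron list (18 genes) to 179 and 99.9 TPM, and the erythrocyte list (8 genes) to 1764 and 5923 TPM. In such bulk samples, fewer cells of a type and less RNA per cell cannot be told apart.

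Levels of the 9 genes ran from rank 2 or 3 among all genes to no read at all. TPM, counts per length scaled to a fixed total, allow genes of 1 library to be compared. Detection was set at 1 TPM or more in each replicate. By this rule 5 of the 9 genes were detected, beside 54.6% of all genes, the same count of 5 reached 10 TPM in both, beside 26.3%, and clu and lrp1aa reached 100 TPM, beside 3.12%. The order clu, lrp1aa, apoeb, lrp2a, lrp1ab was the same in both replicates, and no neighbours in it overlapped in their values. In replicate 2 alone 8 of the 9 passed 1 TPM. Below those 5, apoa1b, apoa1a and apoea followed in that order in both replicates. Their ranges over the replicates overlapped, and counts of 3, 2 and 0 in replicate 1 are too few to fix the order there. The gene lrp2b had no count.

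**Figure D1:**
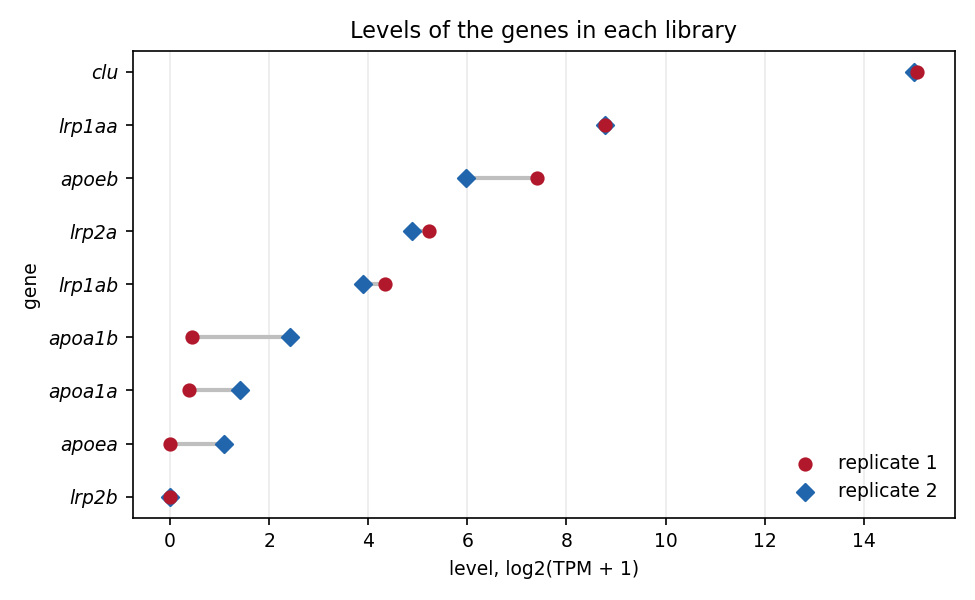
Level of each of the 9 genes as log2(TPM + 1), with a red circle for replicate 1 and a blue diamond for replicate 2. The upper 5 genes keep their order in both replicates, apoeb is the one among them with a wide gap (169.62 and 61.68 TPM), and lrp2b is at 0 in both.

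Clusterin (clu, ENSDARG00000010434), a secreted chaperone that also rides on lipoprotein particles, was by far the most abundant of the group. It stood at 34626 and 32924 TPM in replicates 1 and 2, ranks 2 and 3 of all genes, from 379551 and 475968 expected counts. The replicates lay close together, at 33775 ± 1203 TPM (SD, n = 2), an SD of 3.56% of the mean. As a share of all counts without regard to length, clu took 3.24% of replicate 1 (exact 95% binomial interval 3.23 to 3.25%) and 3.54% of replicate 2 (3.53 to 3.55%). Such intervals cover counting error only and hold no variation between pools. No molecular identifiers are known for these reads, so repeated copies of 1 molecule cannot be told apart. Among 24 apolipoprotein genes matched, clu held 99.2% of the summed TPM in replicate 1 and 99.5% in replicate 2. It stood 204-fold above apoeb in replicate 1 and 534-fold above it in replicate 2, which makes it the leading transcript of this class in both libraries.

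The genes apoeb and apoea encode the zebrafish copies of apolipoprotein E, a ligand of the lipoprotein receptor family on brain lipoproteins. The copy apoeb (ENSDARG00000040295) was at 169.62 TPM in replicate 1 and 61.68 TPM in replicate 2, from 1864 and 843 counts. The other copy, apoea (ENSDARG00000102004), had no count in replicate 1 and 10 counts, or 1.12 TPM, in replicate 2. A count of 0 allows up to 0.508 TPM of apoea in replicate 1, taking 3 counts per library as the limit. The copies were therefore far apart in both libraries: apoeb stood at least 334-fold above apoea in replicate 1 and 55.1-fold above it in replicate 2 (exact 95% interval of counting error, 29.8 to 115).

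Unlike clu, apoeb differed between the libraries. Ratios between replicates were taken as log2 of TPM + 1, replicate 1 over replicate 2, less the median of 0.25 over the 15125 genes whose mean TPM was 1 or more. Its mean was 116 ± 76.3 TPM (SD, n = 2). On the log2 scale apoeb was 2.28-fold higher in replicate 1 (log2 1.19). Counts divided by the library total alone, in CPM, were 159 in replicate 1 and 62.7 in replicate 2, a ratio of 2.54 with an exact counting interval of 2.34 to 2.76. The effective length of apoeb was nearly the same in both, at 1230.0 and 1217 bases, so the difference lies in the counts. Among 7492 genes averaging 10 TPM or more, 2.98% were at least 2-fold higher in replicate 1, and 164 were as far toward replicate 1 as apoeb, itself included.

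Zebrafish apoeb is known as a gene of microglia, the macrophages of the brain, and of glia. The macrophage and microglia list is therefore set beside it. Of its 24 matched genes 21 were detected, beside 54.6% of all genes. Its summed level was 596 TPM in replicate 1 and 760 TPM in replicate 2. By CPM 21 of the 24 genes were higher in replicate 2. The other 3, c1qa, havcr1 and grn2, named after their values were seen, were higher in replicate 1, as apoeb was. Its highest genes were cd74a at 133 and 197 TPM, lgmn at 122 and 133 TPM and hexb at 104 and 118 TPM in replicates 1 and 2, and p2ry12 was at 0 in replicate 1 and 0.26 TPM in replicate 2. Of the 12 genes of the radial glia and astroglia list 9 were detected, beside the same 54.6%. The list summed to 6127 and 6483 TPM, led by vim, glulb and glula, with id4 at 0 in replicate 2. Of these 12 genes 8 had the higher CPM in replicate 1 and 4 in replicate 2. Of 11 compared 3 were past 2-fold, all toward replicate 1, beside 5.22% of all genes compared. Among them, slc1a3b and her4.1 (2.99 and 0.24 TPM, named after its values were seen) averaged 1 TPM or more only through replicate 1. Their direction is thus partly set by the filter on mean TPM. The glutamate transporter genes slc1a2b (14.5 and 1.77 TPM) and slc1a3b (4.22 and 0.07 TPM), chosen after their values were seen, moved the way apoeb did. Of the 3 highest genes of the list, vim (2578 and 3009 TPM) and glula (905 and 1001 TPM) went the other way. The third, glulb, was at 1135 and 937 TPM. The neuron list also moved the way apoeb did, with the higher CPM in replicate 1 for 18 of 18 genes. In the pineal list this held for 20 of 21 genes. The share of all genes with the higher CPM in replicate 1 was not computed, so these counts by CPM have no background beside them. Among genes with counts, the CPM was also higher in replicate 1 for 15 of 18 in the receptor family list. The same held for 10 of 13 receptor helpers and 15 of 23 lipid genes described below. It held for 8 of 20 apolipoprotein genes and 3 of 13 epithelial markers. A lean toward replicate 1 is thus not particular to the glial list. Of the neuron list 6 of 18 genes were detected, beside 54.6% of all genes, and none was at 0. Of the pineal list 13 of 21 were detected, with gngt2b at 0 in replicate 2. The part of these tissues in the level of apoeb was not tested.

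In the RefSeq assembly GRCz12tu, apoeb lies within a row of apolipoprotein genes, with apoa4b.2 on one side and apoc1, apoc4, apoa2 and apoc2 in order on the other. Not all genes of the row were detected. The neighbour apoc1, a small apolipoprotein that in mammals inhibits lipid uptake and exchange, was at 37.4 TPM in replicate 1 and 17.9 TPM in replicate 2 and thus higher where apoeb was higher, with a CPM ratio of 1.95 (exact interval 1.52 to 2.51). The next gene but one, apoa2, an apolipoprotein of high density lipoprotein, went the other way, at 1.12 TPM in replicate 1 and 10.2 TPM in replicate 2, from 4 and 49 counts. The genes apoa4b.1, apoa4b.2 and apoa4b.3 had no counts in either library, and apoc4 had 0 and 1. For apoc2, the activator of lipoprotein lipase, the counts were 8 and 10 while the TPM were 0.18 and 2.71, since RSEM set its effective length at 4911 bases in replicate 1 and 328 in replicate 2. On the strength of its counts apoc2 cannot be called different. The neighbours other than apoc1 were chosen after their values were seen.

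The genes apoa1a and apoa1b encode copies of apolipoprotein A1, the main protein of high density lipoprotein, which in fish as in mammals is abundant in liver. Both were close to the detection limit in this tissue. The gene apoa1b (ENSDARG00000101324) was at 0.37 TPM in replicate 1 and 4.39 TPM in replicate 2, from 3 and 33 counts, and apoa1a (ENSDARG00000012076) was at 0.31 and 1.65 TPM, from 2 and 13 counts. Neither passed 1 TPM in replicate 1 and both did in replicate 2. The CPM of apoa1b were 9.58-fold higher in replicate 2 (exact counting interval 3.01 to 48.8) and those of apoa1a 5.66-fold higher (1.28 to 51.7), so the size of either ratio is poorly fixed by so few counts. The low copy apoea had 0 and 10 counts, and its CPM were at least 2.90-fold higher in replicate 2 against the limit of 3 counts. With the counting error of the 10 counts included, the exact interval of that ratio begins at 1.95. Between the copies of A1, apoa1b was 2.66-fold above apoa1a in replicate 2 (interval 1.36 to 5.51), and replicate 1 held too few counts of both for a ratio.

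Most genes of a liver list were also higher in replicate 2. Of 19 hepatocyte genes 6 were detected, beside 54.6% of all genes. The list summed to 42.5 TPM in replicate 1 and 80.0 TPM in replicate 2. By CPM the sums ran the other way, at 69.8 in replicate 1 and 61.4 in replicate 2. The CPM were higher in replicate 2 for 16 of the 19 genes, and 7 of the 19 had no count in replicate 1, namely fgg, ahsg2, a2ml, serpina1, hpda, hamp and fetub. None was at 0 in replicate 2. Of all 25432 genes, 20041 had a count above 0 in replicate 1 and 19619 in replicate 2. Here too the share of all genes with the higher CPM in replicate 2 was not computed. Of the 3 highest genes, the liver fatty acid binding protein gene fabp10a had 3 and 22 counts, rbp2b was at 12.4 and 23.5 TPM, and cp, which encodes the copper oxidase ceruloplasmin, went against the list at 21.4 TPM in replicate 1 and 8.89 TPM in replicate 2. It made up 77.8% of the list's CPM in replicate 1. Without cp and rbp2b, a choice made after the values were seen, the other 17 genes summed to 7.77 CPM in replicate 1 and 32.0 CPM in replicate 2, with 15 of the 17 higher in replicate 2. The erythrocyte list, given above, was also higher in replicate 2, for 7 of 8 genes. All 8 were above 0 and 7 were detected, beside the same 54.6%. The CPM was also higher in replicate 2 for 21 of 24 macrophage genes and 10 of 13 epithelial markers. In a list of endothelial genes this held for 14 of 20 with counts. Most genes of the radial glia, neuron, pineal and fibroblast lists were higher in replicate 1. A lean toward replicate 2 is thus not particular to the liver and erythrocyte lists. The part of liver or blood in the levels of apoa1a, apoa1b and apoea was not tested.

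**Figure D2:**
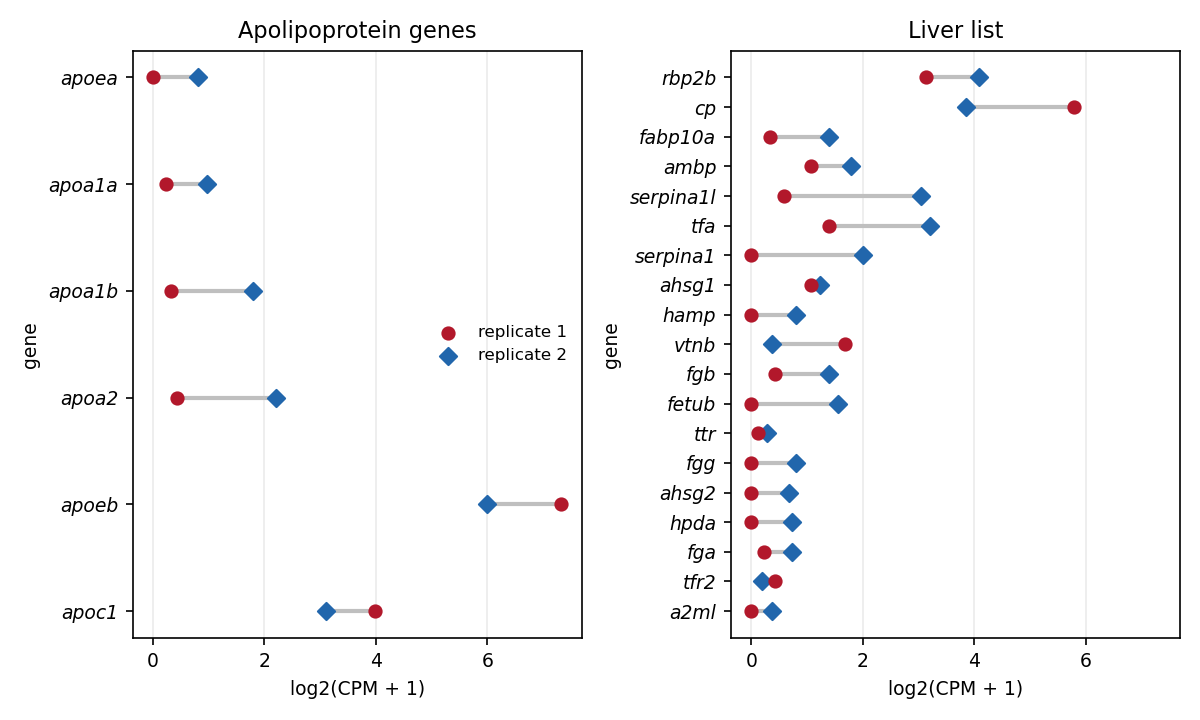
Counts scaled to the library total, as log2(CPM + 1), of 6 apolipoprotein genes (left) and of the 19 genes of the liver list (right), with red circles for replicate 1 and blue diamonds for replicate 2. The genes apoea, apoa1a, apoa1b and apoa2 lie higher in replicate 2, as do 16 of the 19 liver genes, while apoeb and apoc1 lie higher in replicate 1.

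The copies of LRP1, the broad endocytic receptor for apolipoprotein E and protease complexes, were both expressed and at unequal levels. The copy lrp1aa (ENSDARG00000097827) was at 439.28 TPM in replicate 1 and 438.88 TPM in replicate 2, ranks 241 and 236 of all genes, with an SD of 0.0644% of the mean. The closeness holds for TPM as deposited. On the centred log2 scale lrp1aa was at -0.25, and its counts were 12084 and 12992, or 1032 and 966 CPM. The copy lrp1ab (ENSDARG00000029146) was at 19.36 TPM in replicate 1 and 13.93 TPM in replicate 2, or 16.6 ± 3.84 TPM (SD, n = 2), from 2379 and 2151 counts. By TPM, lrp1aa stood 22.7-fold above lrp1ab in replicate 1 and 31.5-fold above it in replicate 2. By counts alone the folds were 5.08 and 6.04. The gap between these measures is the effective length, 3079 and 2635 bases for lrp1aa against 13756 and 13747 bases for lrp1ab. RSEM weighted 7 transcripts of lrp1aa and 2 of lrp1ab to get these lengths, and the level of lrp1aa per length thus depends on how reads were shared among its transcripts.

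The copies of LRP2, or megalin, were at opposite ends. The copy lrp2a (ENSDARG00000102506) was at 36.48 TPM in replicate 1 and 28.40 TPM in replicate 2, from 5393 and 5166 counts over an effective length of 16545 and 16194 bases. By counts without regard to length it ranked 253 and 309 of all genes, and by TPM 2746 and 2977. The level of lrp2a averaged 32.4 ± 5.71 TPM (SD, n = 2), a spread smaller than its distance to the neighbours in the order of levels. The copy lrp2b (ENSDARG00000007906) had no count in either library, which allows at most 0.0346 TPM in replicate 1 and 0.0276 TPM in replicate 2. Against that limit of 3 counts per library, lrp2a was at least 1054-fold higher than lrp2b in replicate 1 and 1030.4-fold in replicate 2. The receptor lrp1aa stood 12.0-fold above lrp2a in replicate 1 and 15.5-fold above it in replicate 2 by TPM, and 2.24-fold and 2.51-fold by counts.

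Pairs of copies were called unequal where 1 copy stood at least 4-fold above the other in each replicate, counting only pairs whose higher copy averaged 10 TPM or more. Among all pairs of zebrafish genes whose symbols differ by a final a and b, 1462 had such a higher copy and 46.2% of these were unequal. Of the 4 pairs within the 9 genes, 3 had such a higher copy and all 3 were unequal, in favour of apoeb, lrp1aa and lrp2a. In the wider lipoprotein lists, which include these, 10 of 14 such pairs were unequal. The widest gaps between copies that both had counts in both libraries were those of mylipa over mylipb, at 439-fold in replicate 1 and 409-fold in replicate 2. An unequal pair is thus common among such pairs of this tissue.

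**Figure D3:**
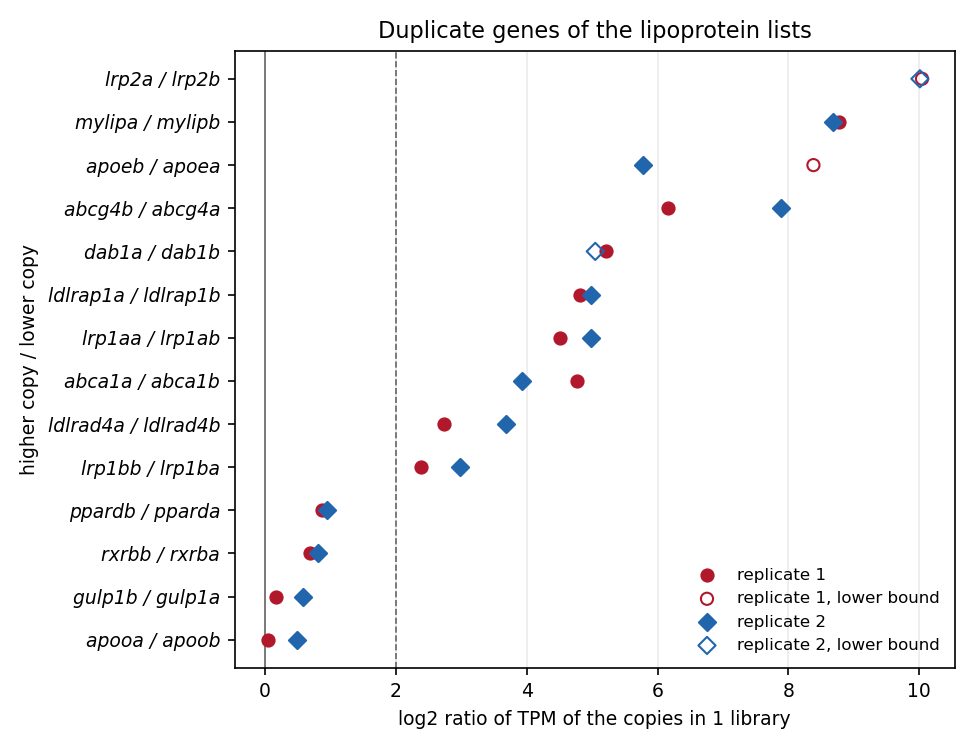
Log2 ratio of the TPM of the higher over the lower copy within each library, for the 14 pairs of the lipoprotein lists whose higher copy averaged 10 TPM or more. Red circles are replicate 1 and blue diamonds replicate 2, open symbols are lower bounds against a count of 0, and the dashed line marks 4-fold, which 10 pairs pass in both replicates.

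The rest of the lipoprotein receptor family was mostly detected, for 15 of 16 genes outside the 9, with 8 at 10 TPM or more in both replicates, beside 54.6% and 26.3% of all genes. Of the 20 matched receptors in all, 18 were detected, 11 reached 10 TPM in both replicates and lrp1aa alone reached 100 TPM, with a median log2(mean TPM + 1) of 3.99 beside 1.82 over all genes. The exceptions were lrp2b and lrp13, both without counts. Outside the 9 genes, lrp10 led at 34.7 TPM in replicate 1 and 43.3 TPM in replicate 2. It was followed by ldlrad4a at 34.5 and 36.3 TPM and by the receptor for VLDL and reelin, vldlr, at 32.05 and 25.2 TPM. The Wnt co-receptor lrp6 was at 26.8 and 19.5 TPM and ldlrad3 at 26.7 and 13.4 TPM. The genes ldlrad4a and ldlrad3 are listed by name, after a receptor class A domain, and binding of lipoproteins by them was not examined. None of the 18 receptors with a mean TPM of 1 or more differed 2-fold between the replicates, beside 8.77% of all such genes, and with 18 genes this is near that background.

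Helpers of these receptors included some of the most abundant genes of the pathway. Of 14 matched chaperones, adaptors and regulators 11 were detected, 8 reached 10 TPM and 2 reached 100 TPM, beside 54.6%, 26.3% and 3.12% of all genes. Their median log2(mean TPM + 1) was 4.62, beside 1.82 over all genes. The gene mylipa, whose mammalian counterpart is a ubiquitin ligase that sends lipoprotein receptors to degradation, was at 751 TPM in replicate 1 and 852 TPM in replicate 2. The chaperone lrpap1, which in mammals keeps LRP1 and LRP2 free of ligands during their synthesis, was at 252 and 166 TPM. The endocytic adaptor dab2, summed over 2 gene entries, was at 143 and 88.4 TPM, the sorting nexin snx17 at 67.3 and 53.1 TPM, and the adaptor ldlrap1a at 58.5 and 50.1 TPM. The partners of megalin in mammals, cubilin and amnionless, were nearly silent, with cubn at 0.35 and 0.25 TPM and amn without counts. These 2 genes were chosen after their values were seen. None of the 11 helpers compared differed 2-fold between the replicates, which is again near the background.

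**Figure D4:**
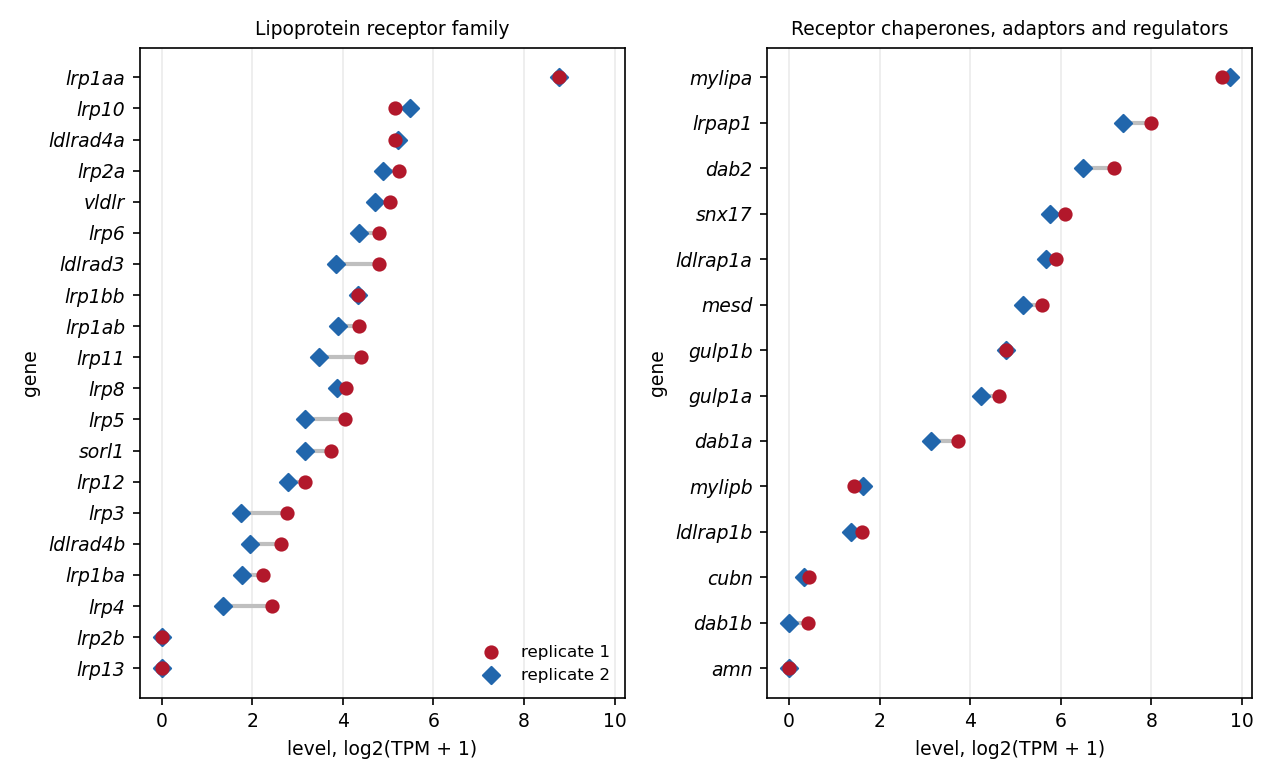
Levels as log2(TPM + 1) of the 20 genes of the lipoprotein receptor family (left) and of the 14 receptor chaperones, adaptors and regulators (right), with red circles for replicate 1 and blue diamonds for replicate 2. Among the receptors lrp1aa stands apart at 439.28 and 438.88 TPM, and among the helpers mylipa and lrpap1 lead.

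Among apolipoproteins, most genes besides clu and apoeb were low. Of 24 matched genes 9 were detected, beside 54.6% of all genes, and 6 reached 10 TPM, beside 26.3%. Only clu reached 100 TPM, beside 3.12%. The median log2(mean TPM + 1) was 0.95, below the 1.82 of all genes. Of 11 compared, 1 was at least 2-fold higher in replicate 1 and 3 in replicate 2. Over all genes compared these shares were 5.22% and 3.56%. Among those higher in replicate 2, apoa1b and apoc2 averaged 1 TPM or more only through that replicate, and the counts of apoc2 hardly differed. Outside the 9 genes the highest was apof, which in mammals regulates lipid transfer between lipoproteins, at 27.0 TPM in replicate 1 and 31.9 TPM in replicate 2, followed by apoc1. The next 3, apool, apooa and apoob, bear the name of apolipoproteins but are known as parts of the complex that shapes mitochondrial cristae. They averaged 24.6 ± 5.40, 12.4 ± 1.65 and 10.6 ± 3.71 TPM (SD, n = 2). The apolipoprotein B genes apoba, apobb.1 and apobb.2, which build VLDL and LDL in liver and intestine and were chosen after their values were seen, were at 0.08 TPM or less.

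Genes that load, move and break down lipids were mostly detected. Of 25 matched genes 19 were detected, 11 reached 10 TPM and 2 reached 100 TPM, beside 54.6%, 26.3% and 3.12% of all genes. Their median log2(mean TPM + 1) was 2.68, beside 1.82 over all genes. Of 21 compared, 1 was at least 2-fold higher in replicate 1 and 1 in replicate 2, beside 5.22% and 3.56% of all genes compared. Lipoprotein lipase, lpl, which frees fatty acids from lipoproteins, was at 395 TPM in replicate 1 and 291 TPM in replicate 2. The lysosomal cholesterol carrier npc2 was at 146 and 143 TPM. Each of these is a sum over 2 gene entries. The exporter abca1a, whose mammalian counterpart loads lipid on apolipoproteins E and A1, was at 136 and 88.5 TPM, scarb2a at 67.4 and 43.65 TPM and mia2 at 31.8 and 24.1 TPM. The transfer protein gene mttp, needed to assemble apolipoprotein B particles, was at 0.42 and 0.04 TPM and was chosen after its values were seen. Among 19 transcription factors and sensors of sterols and stress 17 were detected and 10 reached 10 TPM, beside 54.6% and 26.3% of all genes. Their median log2(mean TPM + 1) was 4.07. Of 18 compared, 1 was at least 2-fold higher in replicate 2, beside 3.56% of all genes compared, and none in replicate 1. The sterol sensor partner scap was at 162 and 97.8 TPM, srebf1 at 82.1 and 36.2 TPM, the heat shock factor hsf1 at 69.3 and 51.8 TPM, rxrbb at 42.9 and 41.5 TPM and ppardb at 36.7 and 31.3 TPM.

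Most of the genes compared lay within 2-fold between the libraries. Of the 6 whose mean TPM was 1 or more, 2 differed at least 2-fold, beside 8.77% of 15125 such genes: apoeb was higher in replicate 1 (5.22% of all) and apoa1b in replicate 2 (3.56% of all). Past 4-fold there was apoa1b alone, beside 2.12% of all, and that call was lost with CPM (log2 -1.61), FPKM (-2.00), no centring (-1.98) and TMM factors (-1.54). With 6 genes the count is too small to be read as a departure from that background. The other 4 lay between -0.25 and 0.19 on the log2 scale. The sign of the values for clu (-0.18) and lrp1aa (-0.25) turned without the centring on the median. For apoa1b the ratio was 4.69-fold (log2 -2.23), and of 7633 genes with a mean TPM from 1 to under 10, 5.02% were at least 2-fold higher in replicate 2 and 76 were as far that way as apoa1b. It passed the filter on mean TPM only through replicate 2, where it was high, so its place among these genes is partly set by the filter. The 3 genes not compared were apoea, apoa1a and lrp2b, each with a mean TPM under 1.

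**Figure D5:**
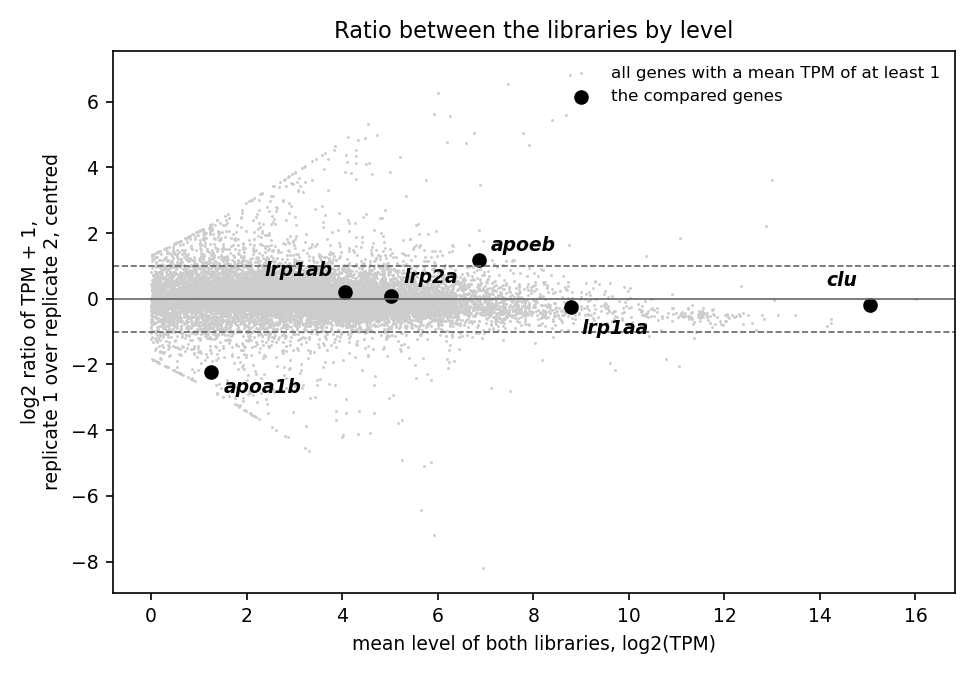
Log2 ratio of TPM + 1, replicate 1 over replicate 2, against the mean level in log2(TPM). The ratio is less its median over genes with a mean TPM of 1 or more. Grey points are the 15125 genes whose mean TPM was 1 or more, black points the 6 genes compared, and dashed lines mark 2-fold, outside which apoeb (above) and apoa1b (below) lie.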

How the data were processed

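Total RNA of 2 pools of forebrain choroid plexus was sequenced. The tools listed are STAR and RSEM 1.3.3 and the build is GRCz11, per the submitters' processing notes. No source used here names the annotation. Each library's file holds expected counts, TPM, FPKM and effective lengths per gene, as the authors deposited them, per the file headers. The authors' series table, whose TPM lay within 0.005 of the mean over the libraries, gave gene names. Levels here are the deposited TPM, CPM were computed from the expected counts, and FPKM served as an alternative. Replicates in the labels are separate pools.

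With 1 group there was nothing to test between groups. Mean ± SD has n = 2. Counting intervals are exact at 95% on rounded counts, and a count of 0 is limited by 3 counts, or 0.256 CPM in replicate 1 and 0.223 CPM in replicate 2. The genes named were the members, the 5 highest others of each pathway list, and the 3 highest of a marker list and those at 0. A pathway gene averaging 10 TPM or more with a 4-fold difference would also have been named, and there was none. 1 member and some other genes are not reported here. Other names are said to be chosen after their values were seen, except the neighbours reps1, scara3 and apoa4a and the receptor lrp13. The members and lists were chosen with earlier results of these data known. Symbols were matched by name and then by RefSeq synonyms. Gene entries sharing a symbol were summed in the lists and pairs. The ratio procedure was also run on simulated data, and the outcome is not given here. Gene order comes from RefSeq GRCz12tu, which is another build than that of the files, so no coordinates are given. Python 3.11.15, pandas 2.3.3, SciPy 1.17.1 and, for TMM factors, edgeR 4.0.16 were used.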

Additional observations from a re-analysis of the deposited data

How the results depend on the processing

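The count of 5 detected genes stayed 5 with CPM, FPKM, a threshold of 0.5 or 5 TPM or mitochondrial and ribosomal protein genes left out, and ranged from 5 to 8 when either replicate was left out, with 8 without replicate 1. The 2 genes past 2-fold and the 3 unequal pairs kept those counts under every alternative that gave a value. Those alternatives took only the genes compared above and the 3 pairs already called, so the count of pairs could not rise. A changed filter altered only the median used for centring. The genes apoa1a and apoea, with a mean TPM of 0.98 and 0.56, were left out of each. The apolipoprotein list, with 9 genes detected, had 10 to 14 with either replicate left out, and 14 without replicate 1. The list of lipid loading, transfer and lipases fell to 12 detected genes at a threshold of 5 TPM, against 19 at 1 TPM. Without centring, the log2 ratio between replicates became 0.07 for clu and 0.0013 for lrp1aa. The ratio of apoa1b ran from -3.54 with TPM + 0.1 to -1.54 with TMM factors. Averaged over the replicates, lrp1aa was 5.54-fold above lrp1ab with CPM in place of TPM, where length is left out. No ratio between replicates exists once a replicate is left out. Depth limits apoea, apoa1a and apoa1b, with at most 33 counts in a library. No paired analysis was possible because there is 1 group.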

Other observations

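Relatives outside the lists, chosen after their values were seen, were also expressed. The clusterin-like gene clul1 has 2 entries, the first with 26.0 TPM in replicate 1 and 25.55 TPM in replicate 2 and the second with 2.81 and 3.19 TPM. The gene ldlrad2, named for a receptor class A domain, was at 154 TPM in replicate 1 and 149 TPM in replicate 2, above all receptors of the family list except lrp1aa.

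The abundance of clu was not shared by the genes beside it. In the RefSeq assembly GRCz12tu its neighbours are reps1 on one side, at 40.3 TPM in replicate 1 and 28.75 TPM in replicate 2, and scara3 on the other, at 2.79 and 4.85 TPM. The neighbour of apoea named apoa4a had 7 counts in replicate 1 and 0 in replicate 2, against 0 and 10 for apoea itself.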
